A study of Mus musculus with 6 samples.

Results

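Serpins are a family of protease inhibitors, and 48 of their genes were measured among 19938 genes on arrays of mouse thymic medullary epithelial cells. A gene was taken as a member where its symbol is Serpin followed by a letter from a to i and a digit and where a probe set carries that symbol alone. Clade a, whose members are mostly secreted, gave 15 genes, clade b, whose members mostly stay inside the cell, gave 24, and clades c to i gave 9. The 3 mice labelled Aire KO (Aire-/-) and the 3 mice labelled Aire WT were all of (B6xNOD)F1 background and 4 to 6 weeks old, and each mouse was its own sample. Medullary epithelial cells were sorted from the digested thymus as CD45-, Ly51int and MHC class II high cells, and their RNA was amplified in 2 rounds before hybridisation. The labels state neither the part of Aire that was deleted nor the sex of the mice. All levels below are log2 RMA intensities, each difference is KO minus WT on that scale, and a level is never compared between genes, since probe sets differ in brightness.

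A serpin traps its target protease by offering a loop as bait. Cleavage of the loop springs the inhibitor into a new shape and leaves the protease distorted and bound to it, so that each molecule acts once. Some members have lost this activity and work as hormone carriers or as a chaperone of collagen. Medullary epithelial cells express many genes of other organs and show their proteins to developing T cells, and Aire is a transcriptional regulator of many of those genes. Serpins of plasma, skin and blood cells could therefore each appear in these cells as tissue antigens or as inhibitors that the cells use themselves.

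The Aire probe set was brighter in the mice labelled KO. Its level was 12.38, 12.41 and 12.42 in the KO mice, against 11.998, 11.92 and 11.99 in the WT mice. All KO mice lay above all WT mice, by 0.44 on average (SE 0.08, 3 mice each, limma adjusted p = 0.0017). With the deleted part of the gene unstated, the genotype cannot be tested on this value, and the groups are called by their labels. Array medians of intensity lay between 93.5 and 97.4 in KO and between 92.9 and 98.2 in WT. Log2 levels correlated across probe sets at 0.991 to 0.993 within KO, 0.990 to 0.993 within WT and 0.976 to 0.985 between the groups. Markers of the sorted cell type were present, with all 19 listed genes above the intensity filter, among them H2-Aa at 13.6 in KO and 13.4 in WT. Of these 19, Krt5 (-0.84), Krt14 (-0.44) and Epcam (-0.37) were lower and Cd86 (0.97) and Ctss (0.46) higher. Enpep, the gene of the sort marker Ly51, was lower in KO at 6.27, against 7.26 in WT (limma adjusted p = 6.4e-06). Markers of other cells were also counted, beginning with 4 higher and 1 lower of 6 tested cortical epithelial genes and 2 higher and 4 lower of 10 tested myeloid genes, beside 12% higher and 14.1% lower among all genes tested. The lower myeloid list genes were Ptprc, the gene of the sort marker CD45, at 6.47 in KO and 7.09 in WT (limma adjusted p = 0.022), Csf1r (-0.54), Adgre1 (-1.58) and Itgam (-1.29), the last 2 of them above the filter in WT mice only. Over the 10 tested myeloid genes differences ran from -1.58 to 0.64, with a median of -0.16. Over the 6 tested cortical genes, Enpep among them, they ran from -1.0 to 0.54, with a median of 0.43. Of 8 T lineage genes tested, Cd3g was lower, of 7 fibroblast genes Dcn was higher and Col1a1 lower, and the 5 endothelial genes had differences from -0.26 to 0.14. The part of other cell types in the results was not tested.

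Serpin genes changed in both directions in the mice labelled KO. Of the 48 genes, 27 lay above the intensity filter, a log2 level of 5.97 in at least 3 of the 6 arrays, and were tested. Among these 27, 10 fell and 8 rose in limma's test (Benjamini-Hochberg adjusted p up to 0.05), which together is 66.7%, beside 26.1% of all 13925 genes tested. Falls made up 14.1% and rises 12% of all genes tested. The median difference of the 27 was 0.0024, beside 0.015 over all genes tested, and the median size of the difference, without its sign, was 0.44, beside 0.16. Serpinb3c, Serpinb5 and Serpind1 were above the filter in WT mice and in no KO mouse, which left a fall as the only possible call, so these counts and medians lean on the filter. With no filter, 15 of the 48 were called lower and 9 higher, which is 50% of them, beside 19.9% of all 19938 genes, of which 11% were called lower and 8.93% higher. By 2-fold or more, 6 tested serpins fell and 2 rose, beside 2.11% and 0.524% of all genes tested. With the offset of 32 on every intensity these counts were 3 and 1, beside 1.44% and 0.352%. In RNA from sorted cells in bulk, fewer cells of a type and less RNA per cell cannot be told apart.

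**Figure D1:**
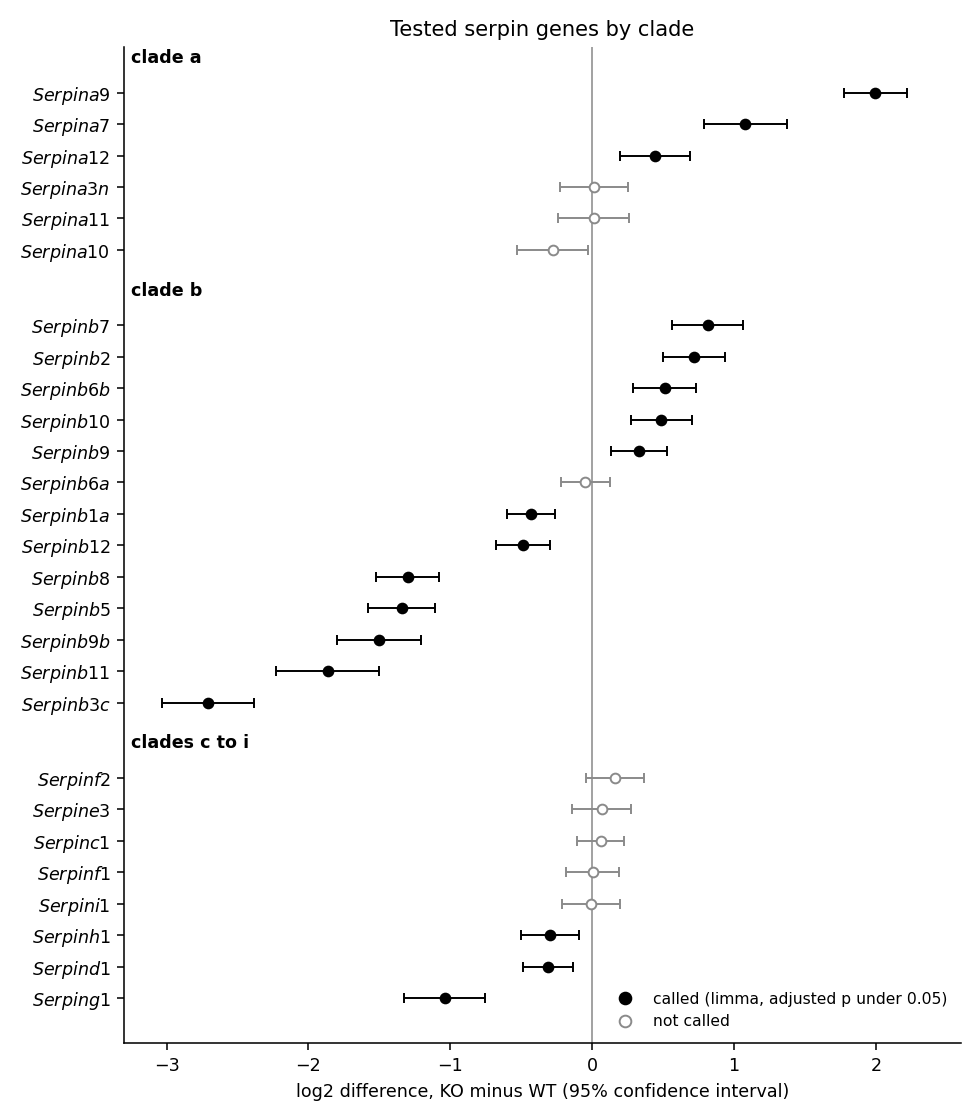
Log2 difference, KO minus WT, of the 27 tested serpin genes with its 95% confidence interval from limma (n = 3 mice per group), by clade. Filled points passed the adjusted threshold and open points did not: clade b holds 7 genes to the left and 5 to the right, the 3 called genes of clade a lie to the right, and the 3 called genes of clades c to i lie to the left.

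By clade, the share of tested genes that were called was 50% in clade a, 92.3% in clade b and 37.5% in clades c to i, beside 26.1% of all genes tested. These shares lean on the filter, which left a fall as the only possible call for Serpinb3c, Serpinb5 and Serpind1. With no filter the shares were 33.3% in clade a, 66.7% in clade b and 33.3% in clades c to i, beside 19.9% of all genes. Of 6 clade a genes tested, 3 rose and 0 fell by limma, and at an unadjusted p under 0.05 Serpina10 was lower. In clade b, 7 of 13 fell and 5 rose, so that 1 tested gene, Serpinb6a, was not called. In clades c to i, 3 of 8 fell and 0 rose by limma, also at an unadjusted p under 0.05. Differences ran from -0.28 to 2.0 in clade a, from -2.71 to 0.81 in clade b and from -1.04 to 0.16 in the others. Whether the clades differ from each other was not tested, since genes are not replicates of a condition.

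Among the clade a genes, Serpina9, known in human as centerin of germinal centre B cells, had the largest rise of the 27 tested serpins. Its level was 9.24, 9.11 and 8.90 in the KO mice, against 6.98, 7.19 and 7.10 in the WT mice. The lowest KO mouse lay well above the highest WT mouse. The means were 9.09 ± 0.17 in KO and 7.09 ± 0.11 in WT (SD, n = 3 each), a 3.99-fold rise (difference 2.0, SE 0.10, limma adjusted p = 1.8e-07). In the B lineage list, 4 of 6 tested genes were also higher in KO, beside 12% of all genes tested. They were Blk (0.47), Pax5 (0.31), Cd79b (0.24) and the complement receptor gene Cr2, at 9.45 ± 0.20 in KO and 8.42 ± 0.14 in WT (SD, n = 3 each). Over the 6 tested genes of the list differences ran from -0.06 to 1.03, the latter that of Cr2, and 2 were not called. The log2 of the mean intensity over that list was 7.49 to 7.62 in KO, against 7.04 to 7.11 in WT. Bright genes such as Cr2 weigh most in a mean of linear intensities, so this value does not show a rise across the list. The other 3 measured genes of the list, Cd79a, Ms4a1 and Cd22, lay under the intensity filter, at 4.8, 4.7 and 5.5 in KO and 4.9, 5.2 and 5.6 in WT. The part of B cells in the Serpina9 result was not tested.

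Serpina7, the thyroxine-binding globulin of plasma, is an X-linked member that carries a hormone and inhibits no protease. Its level was 8.74, 8.89 and 9.17 in KO, against 8.09, 7.61 and 7.85 in WT. The groups did not overlap, and the 2.11-fold rise (difference 1.08, SE 0.13, limma adjusted p = 0.00014) was larger than the spread between mice in either group. Serpina12, the adipokine vaspin, stands next to Serpina9 in the genome. It was at 6.77, 6.49 and 6.51 in KO, against 6.03, 6.04 and 6.36 in WT. The highest WT mouse came close to the lowest KO mouse, and the difference was 0.44 (SE 0.11, limma adjusted p = 0.014). Without KO replicate 1 the call was lost (limma adjusted p = 0.065).

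The other clade a genes tested were not called. Serpina3n, a relative of the plasma protein alpha-1-antichymotrypsin, was at 8.27, 8.40 and 8.12 in KO, against 8.17, 8.13 and 8.45 in WT. These groups overlapped, and the 95% interval of the difference ran from -0.22 to 0.25. Serpina11 was at 0.010 (interval -0.24 to 0.26). Serpina10, the protein Z-dependent inhibitor of coagulation, was at -0.28 (SE 0.11, limma adjusted p = 0.092). A further 9 clade a genes, among them the corticosteroid-binding globulin gene Serpina6 and the protein C inhibitor gene Serpina5, were too dim to test, with differences from -0.50 to 0.35.

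**Figure D2:**
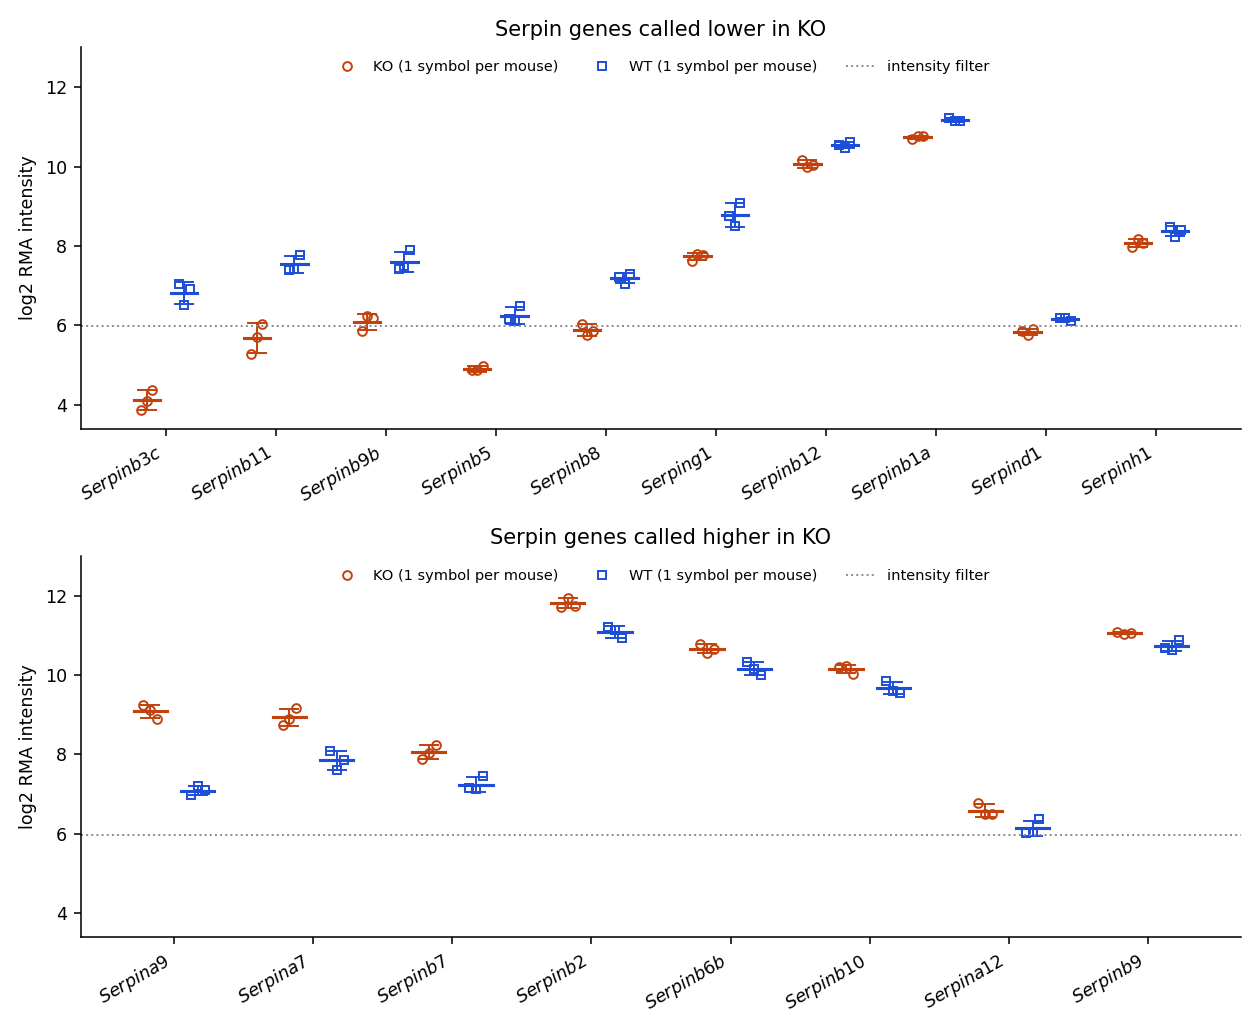
Log2 RMA intensity of the 18 called serpin genes in each mouse (circles KO, squares WT), with the mean and SD (n = 3 per group) and the intensity filter as a dotted line. In each of the 18 genes the KO and WT mice do not overlap, and the 3 KO values of Serpinb3c, Serpinb5 and Serpind1 lie under the filter.

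In clade b, Serpinb3c had the largest difference of the 27 tested serpins. It belongs to the squamous cell carcinoma antigen group of serpins, which inhibit cysteine and serine proteases in stratified epithelia. Its level was 3.87, 4.11 and 4.36 in the KO mice, against 7.03, 6.52 and 6.91 in the WT mice. All KO mice lay under the intensity filter and all WT mice above it. The means were 4.11 ± 0.25 in KO and 6.82 ± 0.27 in WT (SD, n = 3 each), and the difference was -2.71 (SE 0.15, limma adjusted p = 2.4e-07). The KO level is close to background, so the size of the fall depends on the scale: with an offset of 32 added to every intensity, the difference was -1.56, near that of Serpinb11 at -1.38. Its paralogs Serpinb3a and Serpinb3d were under the filter in both groups, at 3.68 and 4.09 in KO and 4.62 and 4.82 in WT. With no filter both were called lower, at -0.94 and -0.73. Probe sets of such close paralogs may share sequence, so the 3 values may not be independent.

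The other 6 clade b genes that fell follow. Serpinb11, a trypsin inhibitor in mouse, was at 5.27, 5.72 and 6.02 in KO, against 7.41, 7.43 and 7.77 in WT. The groups lay more than 1 log2 unit apart, and the gene fell 3.64-fold (difference -1.86, SE 0.17, limma adjusted p = 1.0e-05). Serpinb5, known as maspin, is a member of mammary and skin epithelium with no known inhibitory activity. It was at 4.86, 4.86 and 4.99 in KO, against 6.15, 6.10 and 6.49 in WT. The WT mice lay just above the filter and the KO mice below it, and the gene fell 2.53-fold (difference -1.34, SE 0.11, limma adjusted p = 4.6e-06; -0.80 with the offset). Serpinb12, an inhibitor of trypsin-like proteases in epithelia, was at 10.17, 9.98 and 10.03 in KO, against 10.55, 10.47 and 10.62 in WT. The groups did not overlap, and its difference was -0.49 (SE 0.09, limma adjusted p = 0.0018).

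Serpinb8, which inhibits the proprotein convertase furin in human, was at 6.04, 5.76 and 5.85 in KO, against 7.23, 7.04 and 7.28 in WT. Every KO mouse lay about 1 log2 unit or more below every WT mouse. The gene fell 2.46-fold (difference -1.30, SE 0.10, limma adjusted p = 3.3e-06). Serpinb9b, a paralog of Serpinb9, was at 5.86, 6.23 and 6.19 in KO, against 7.41, 7.49 and 7.89 in WT. It fell 2.83-fold (difference -1.50, SE 0.14, limma adjusted p = 1.2e-05), again with no overlap. Serpinb1a, the inhibitor of neutrophil elastase and related granule proteases, was at 10.70, 10.77 and 10.76 in KO, against 11.23, 11.15 and 11.14 in WT. The spread between mice was small in both groups, and the difference of -0.43 (SE 0.08, limma adjusted p = 0.0020) exceeded it.

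The 5 clade b genes that rose changed by less than 2-fold. Serpinb7, known as megsin in human kidney, was at 7.90, 8.03 and 8.24 in KO, against 7.15, 7.13 and 7.45 in WT. It rose 1.76-fold (difference 0.81, SE 0.11, limma adjusted p = 0.00034), and the groups did not overlap. Serpinb2, the plasminogen activator inhibitor of macrophages and keratinocytes, was at 11.72, 11.95 and 11.75 in KO, against 11.21, 11.13 and 10.93 in WT. It rose 1.64-fold (difference 0.72, SE 0.10, limma adjusted p = 0.00035). All KO mice again lay above all WT mice.

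Serpinb10, known in human as bomapin of blood-forming cells, was at 10.19, 10.24 and 10.03 in KO, against 9.84, 9.6 and 9.56 in WT. The gap between the groups was narrower here, with a difference of 0.49 (SE 0.10, limma adjusted p = 0.0040). Serpinb6b, a paralog of Serpinb6a, was at 10.78, 10.55 and 10.66 in KO, against 10.32, 10.16 and 9.99 in WT, a difference of 0.51 (SE 0.10, limma adjusted p = 0.0038). Serpinb6a itself, an inhibitor of cathepsin G, was at 9.91, 9.80 and 9.83 in KO, against 9.85, 9.89 and 9.95 in WT. Here the groups overlapped, and the interval of the difference ran from -0.22 to 0.12.

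Serpinb9, the inhibitor of granzyme B that protects cells from their own or foreign cytotoxic granules, was at 11.10, 11.04 and 11.05 in KO, against 10.68, 10.63 and 10.88 in WT. The groups did not overlap, although WT replicate 3 lay near the KO mice. The difference was 0.33 (SE 0.09, limma adjusted p = 0.019). Leaving out single mice ended this call without KO replicate 1 (limma adjusted p = 0.070), KO replicate 3 (0.056), WT replicate 1 (0.061) or WT replicate 2 (0.068). The fall of Serpinb9b was called in each of those fits.

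A further 11 clade b genes were too dim to test, with differences from -0.94 to 0.17. Over all clades, 21 members were set aside in this way, with levels between 3.41 and 5.84 on single arrays. When every gene was tested with no filter, 5 of the 21 were called lower and 1 higher, beside 11% and 8.93% of all 19938 genes. The 5 were Serpinb3a, Serpinb3d, Serpinb13 (-0.47), Serpinb6c (-0.40) and Serpina1c (-0.50), and the other was Serpina1d (0.35). Differences at such levels are measured close to background.

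Probe sets annotated to several serpin genes were no members and are given apart. Of 5, 2 carry the same 5 genes of the alpha-1-antitrypsin group (Serpina1a to Serpina1e), the plasma inhibitor of neutrophil elastase. One of them was at 6.37, 6.56 and 6.56 in the KO mice, against 7.01, 7.2 and 7.66 in the WT mice. The groups did not overlap, and with each of 21688 probe sets tested on its own it was called lower (-0.79, limma adjusted p = 0.017), as were 9.04% of those probe sets. The other was under the filter, with means of 4.71 in KO and 5.29 in WT. The remaining 3, annotated to 4 paralogs of Serpinb9, were also under the filter, with overlapping groups and differences from -0.086 to -0.0086.

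In clades c to i, the called genes were all lower in KO. Serping1, the C1 inhibitor that restrains complement and the kallikrein-kinin system, was at 7.63, 7.80 and 7.77 in KO, against 8.75, 8.49 and 9.08 in WT. The WT mice varied more than the KO mice, and still every KO mouse lay below every WT mouse. The means were 7.73 ± 0.09 in KO and 8.77 ± 0.30 in WT (SD, n = 3 each), a 2.06-fold fall (difference -1.04, SE 0.13, limma adjusted p = 0.00016).

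Serpind1, the thrombin inhibitor heparin cofactor II, was at 5.86, 5.76 and 5.90 in KO, against 6.17, 6.18 and 6.10 in WT. The WT mice lay barely above the filter and the KO mice barely below it, and the difference was -0.31 (SE 0.08, limma adjusted p = 0.016). Without KO replicate 2 the call was lost (limma adjusted p = 0.053). Serpinh1, the collagen chaperone of the endoplasmic reticulum, was at 7.97, 8.17 and 8.07 in KO, against 8.47, 8.23 and 8.40 in WT. The groups nearly touched, and the difference was -0.30 (SE 0.09, limma adjusted p = 0.036). Its call was lost without KO replicate 1 (limma adjusted p = 0.14), KO replicate 3 (0.096), WT replicate 1 (0.12) or WT replicate 3 (0.071). Col1a1, which encodes a collagen chain and stands on the fibroblast list, was lower as well, at 7.91 ± 0.08 in KO and 8.54 ± 0.07 in WT (SD, n = 3 each), while Col1a2 and Col3a1 were not called, and the log2 of the mean intensity over the list was 8.19 to 8.45 in KO, against 8.03 to 8.16 in WT. The part of fibroblasts in the Serpinh1 result was not tested.

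The other 5 tested genes of these clades were not called. Serpinc1, the antithrombin gene, was at 7.93, 7.94 and 7.95 in KO, against 7.86, 7.90 and 7.87 in WT. The groups did not overlap, but the difference was 0.06 with an interval from -0.10 to 0.23. Serpini1, the neuroserpin that inhibits tissue plasminogen activator, was at 7.69, 7.84 and 7.69 in KO, against 7.86, 7.60 and 7.79 in WT. Its groups overlapped, and the interval was -0.21 to 0.20.

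Serpinf1, known as pigment epithelium-derived factor, was at 6.80, 6.96 and 6.88 in KO, against 6.95, 6.90 and 6.79 in WT, with an interval of the difference from -0.18 to 0.19. Serpinf2, the plasmin inhibitor, was at 6.90, 6.94 and 6.81 in KO, against 6.64, 6.88 and 6.64 in WT. The groups of both genes overlapped, and the interval for Serpinf2 was -0.04 to 0.37. Serpine3 was at 0.07 (interval -0.14 to 0.28), and Serpini2 was too dim to test.

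In 19 of the 27 tested genes the KO and WT mice did not overlap, beside 42.4% of all genes tested. These 19 were the 18 called genes and Serpinc1. SDs of the 27 genes within a group of 3 mice ran from 0.0084 to 0.38.

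Most clade a and clade b genes lie in clusters of paralogs, whose order was read from RefSeq (assembly GRCm38.p6). On chromosome 1, 12 clade b genes stand side by side between Serpinb5 and Serpinb8, and 11 of them had a probe set of their own. Along this cluster the direction changed between neighbours. Serpinb5, Serpinb12, Serpinb3c and Serpinb11 fell, the next 3 genes, Serpinb7, Serpinb2 and Serpinb10, rose, and Serpinb8 at the end of the cluster fell. Between Serpinb12 and Serpinb3c stood Serpinb13, Serpinb3a and Serpinb3d, all under the filter with negative differences, and Serpinb3b, not analysed here. Serpinb11 and its neighbour Serpinb7 thus differed by -1.86 and 0.81. The genes next to the cluster were not called, with Kdsr at -0.09 and Vps4b at -0.22 on one side, and Cdh7 and Cdh19, both too dim to test, on the other.

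A cluster on chromosome 13 holds 17 clade b genes, 13 of them with their own probe set and 5 of those tested. Serpinb1a, at one end, and Serpinb9b fell, and the adjacent genes Serpinb6b and Serpinb9 between them rose. Serpinb6a at the far end was not called, and the other 8 were dim. Of the genes beside this cluster, Wrnip1 (0.27, limma adjusted p = 0.070) and Nqo2 (0.09) were not called, and Mylk4 was too dim to test, at 4.94 in KO and 6.06 in WT (-1.12). On chromosome 12, the adjacent genes Serpina9 and Serpina12 rose and the neighbour of Serpina9 on the other side, Serpina11, was not called. This clade a cluster holds 28 genes in the table, of which 14 had a probe set of their own, 9 of them dim. The genes next to it that were tested, Ifi27l2b, Gsc and Dicer1, were not called.

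**Figure D3:**
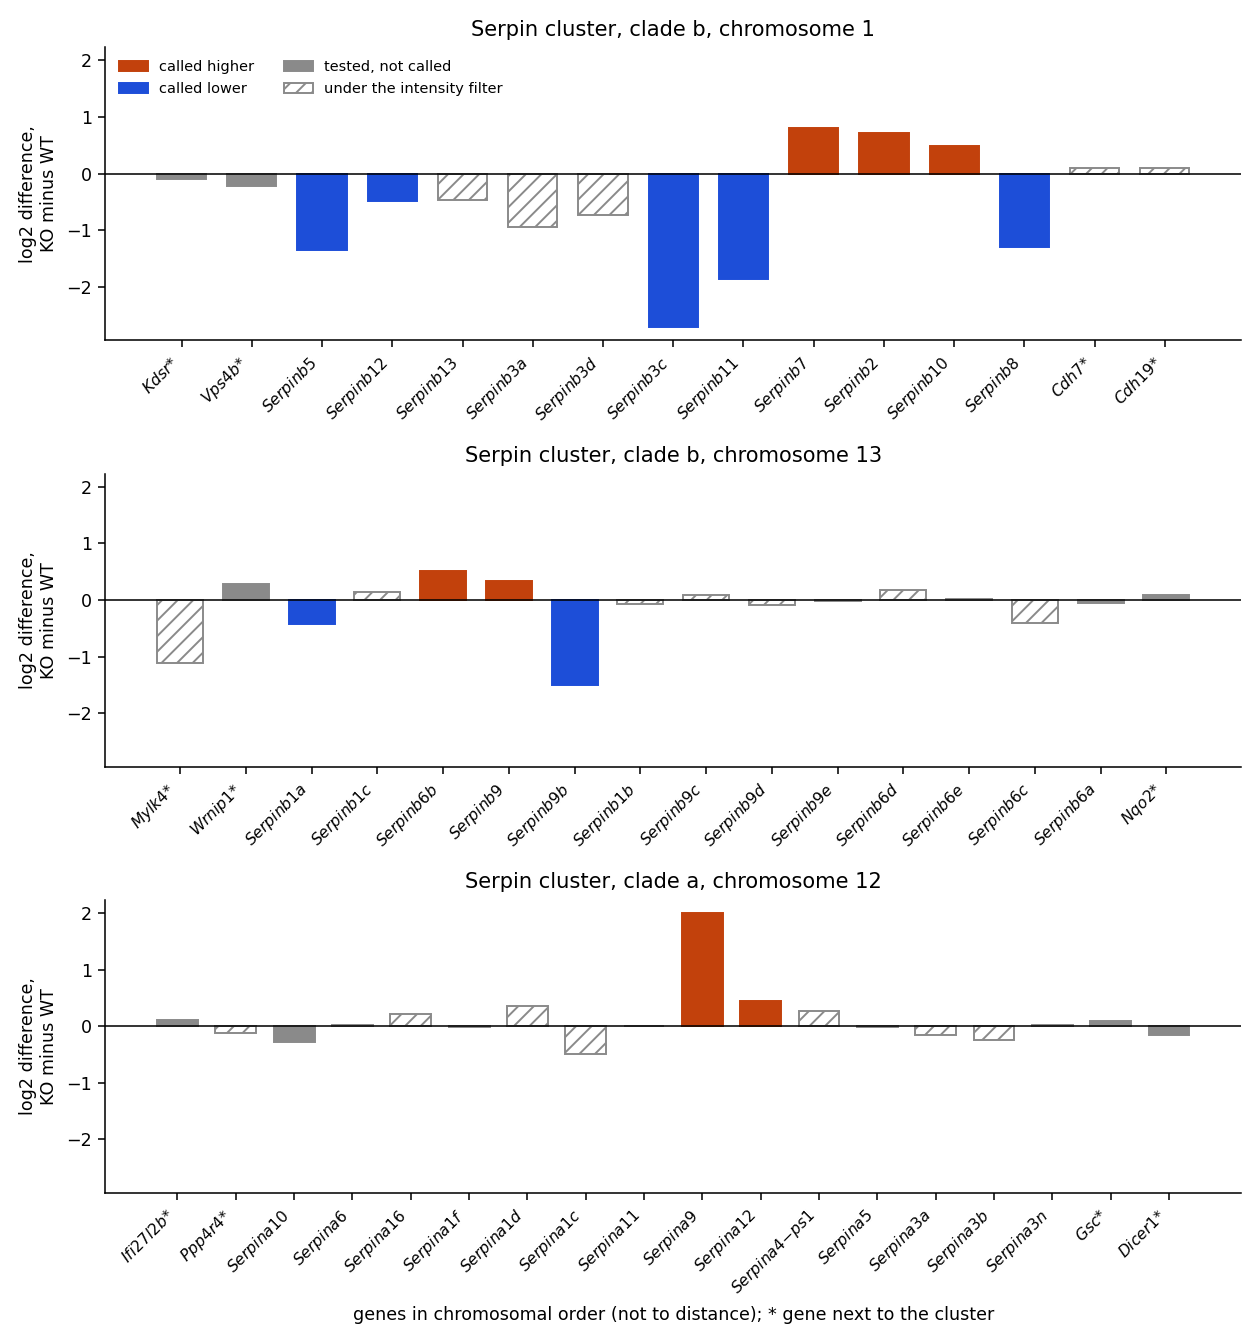
Log2 difference, KO minus WT, of the serpin genes in 3 clusters and of the genes beside them (marked with an asterisk), in chromosomal order and not to distance. On chromosome 1 the called falls of Serpinb3c (-2.71) and Serpinb11 (-1.86) stand directly beside the called rises of Serpinb7 (0.81), Serpinb2 (0.72) and Serpinb10 (0.49).

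The promoters of 3 neighbours on chromosome 1 are shown because the direction changed among them. Each is the RefSeq window of build GRCm38.p6 from 250 bases before to 50 bases after the transcript start, written 5′ to 3′ on the strand of the gene, and capitals mark TATAAA and TGANTCA on either strand and any CG. Serpinb3c (chr1:107278322-107278621, minus strand) and Serpinb11 (chr1:107362064-107362363, plus strand) fell, and Serpinb7 (chr1:107422439-107422738, plus strand) rose.
Serpinb3c: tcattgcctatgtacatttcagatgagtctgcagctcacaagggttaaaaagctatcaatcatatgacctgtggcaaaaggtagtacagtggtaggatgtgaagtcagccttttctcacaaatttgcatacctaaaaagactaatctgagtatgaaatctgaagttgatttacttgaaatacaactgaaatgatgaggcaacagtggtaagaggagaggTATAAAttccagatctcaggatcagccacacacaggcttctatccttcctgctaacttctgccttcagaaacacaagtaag
Serpinb11: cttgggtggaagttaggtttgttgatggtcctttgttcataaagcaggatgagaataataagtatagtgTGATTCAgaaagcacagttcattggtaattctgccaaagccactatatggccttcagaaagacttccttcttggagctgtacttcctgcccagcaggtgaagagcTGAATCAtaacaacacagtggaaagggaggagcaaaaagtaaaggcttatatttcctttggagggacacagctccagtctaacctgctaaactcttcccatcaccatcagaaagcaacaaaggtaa
Serpinb7: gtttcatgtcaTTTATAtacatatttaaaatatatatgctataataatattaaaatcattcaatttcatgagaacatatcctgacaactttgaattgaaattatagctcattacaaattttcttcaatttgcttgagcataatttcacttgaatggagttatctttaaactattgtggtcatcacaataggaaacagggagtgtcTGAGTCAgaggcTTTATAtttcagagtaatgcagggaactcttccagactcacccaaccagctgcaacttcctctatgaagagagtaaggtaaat
Serpinb3c has TATAAA starting at position -31 from the transcript start, and Serpinb7 has its reverse complement at -33 and at -239. TGANTCA, in which N is any base, is a loose form of the motif bound by AP-1 factors. Serpinb11 has it at -181 (TGATTCA) and -76 (TGAATCA), and Serpinb7 has it at -45 (TGAGTCA). None of the 3 windows holds a CG.

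Promoter windows were found for 41 of the 48 serpins, 49 windows in all, and Serpina9, Serpinb1a and Serping1 are among those with none. Windows of called lower genes held a median of 2 CG (range 0 to 16) and those of called higher genes a median of 1 (range 0 to 7). Tested genes that were not called had a median of 4.5, and all 32851 promoter windows of the table had a median of 7. Some genes have several windows, which can overlap, so motifs were counted by gene. TATAAA stood in a window of 2 of 8 lower genes, 3 of 7 higher genes, 0 of 8 genes not called and 7 of 18 dim genes, which is 29.3% of these serpins, beside 15.7% of all genes with a window. TGANTCA stood in 4 of 8 lower, 3 of 7 higher, 0 of 8 not called and 2 of 18 dim genes, which is 22% of these serpins, beside 9% of all. A single fixed form of the kappa B motif of NF-kB, with no variable base, stood in 0 of the serpin genes and in 0.2% of all. Other forms of that motif were not searched, so the windows may hold them. These shares are descriptions over paralogs that share sequence, with no test, and a match is not a site.

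The proteases that serpins act on, or that work in the same cascades, fell in more cases than they rose. Of 60 listed, 54 were measured and 36 tested: 17 fell and 9 rose, which is 72.2%, beside 26.1% of all genes tested, and their median difference was -0.21. Every tested kallikrein gene of the list fell, namely Klk5, Klk6, Klk7, Klk8, Klk10, Klk13 and Klk14. The lean towards falls rests largely on this group of paralogs. The epidermal kallikrein gene Klk5 was at 5.41 ± 0.14 in KO and 7.66 ± 0.24 in WT (SD, n = 3 each). The pancreatic chymotrypsinogen gene Ctrb1 was at 6.68 ± 0.12 in KO and 8.57 ± 0.19 in WT, and Klk7 at 8.27 ± 0.11 in KO and 9.80 ± 0.06 in WT. Their differences were -2.25, -1.89 and -1.54 (limma adjusted p = 2.4e-07 for Klk5 and 2.9e-07 for each of the other two). Klk5, Gzmb and Mcpt4 were above the filter in WT mice only and Acr, 1 of the 9 rises (0.32), in KO mice only, so that the filter left each of them 1 possible direction. Among the rises were prothrombin (F2, 0.73), the class II antigen-processing protease gene Ctss (0.46), Tmprss2 (0.39) and Tmprss11d (0.37). Leaving out KO replicate 1 brought the 9 rises to 4, and leaving out KO replicate 3 brought them to 5.

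Several known pairs of serpin and protease can be set side by side. They are not all the pairs on the lists, and some were chosen after their values were seen. Gzmb, the gene of the granzyme that Serpinb9 inhibits, was at 5.26 ± 0.21 in KO and 7.23 ± 0.24 in WT (SD, n = 3 each), a difference of -1.97 (SE 0.13, limma adjusted p = 1.2e-06), and Serpinb9 was at 0.33. Plau, the urokinase that Serpinb2 inhibits, was at 7.98 ± 0.14 in KO and 9.0 ± 0.28 in WT (difference -1.02, SE 0.13, limma adjusted p = 0.00017), and Serpinb2 was at 0.72. In these pairs the protease gene fell and the serpin gene rose. The opposite held for F2 and its inhibitor Serpind1, at 0.73 and -0.31, and Serpinc1, another thrombin inhibitor, was not called. The calls of Serpinb9 and Serpind1 were lost when some single mice were left out. For Gzmb and Serpind1 the filter left a fall as the only possible call. Furin and Serpinb8 both fell, at -0.70 and -1.30. Plat, the protease of neuroserpin, was not called at 0.18, nor was Serpini1.

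Among protease inhibitors of other folds, too, falls were the more frequent calls. Of 58 listed, 52 were measured and 32 tested: 15 fell and 2 rose, which is 53.1%, beside 26.1% of all genes tested (14.1% lower and 12% higher), with a median difference of -0.16, and 2 of the 32 were above the filter in WT mice only. Broad plasma inhibitors stood first, with A2m, the gene of alpha-2-macroglobulin, at 6.24 ± 0.04 in KO and 7.65 ± 0.13 in WT (SD, n = 3 each; difference -1.41, limma adjusted p = 7.2e-07) and Itih4 at -1.49. The stefin gene Stfa3 (-1.39) and Itih3 (-1.03) followed in order of adjusted p. Tfpi, the inhibitor of the tissue factor pathway, rose by 0.65 and Itih1 by 0.39. Spint1 and Spint2, Kunitz inhibitors of epithelial surface proteases, were not called at -0.14 and 0.11.

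Receptors that clear serpin complexes and binding partners of serpins were called in a share near that of all genes. Of 20 listed, 16 were tested, and 3 fell and 2 rose, which is 31.2%, beside 26.1% of all genes tested, with a median difference of -0.097. The lipoprotein receptor gene Vldlr (0.54) and Sorl1 (0.46) rose, and Plxdc2 (-0.50), the urokinase receptor gene Plaur (-0.40) and Lrp2 (-0.30) fell. Plxdc2 was above the filter in WT mice only. Lrp1, the main clearance receptor, was not called at -0.24.

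**Figure D4:**
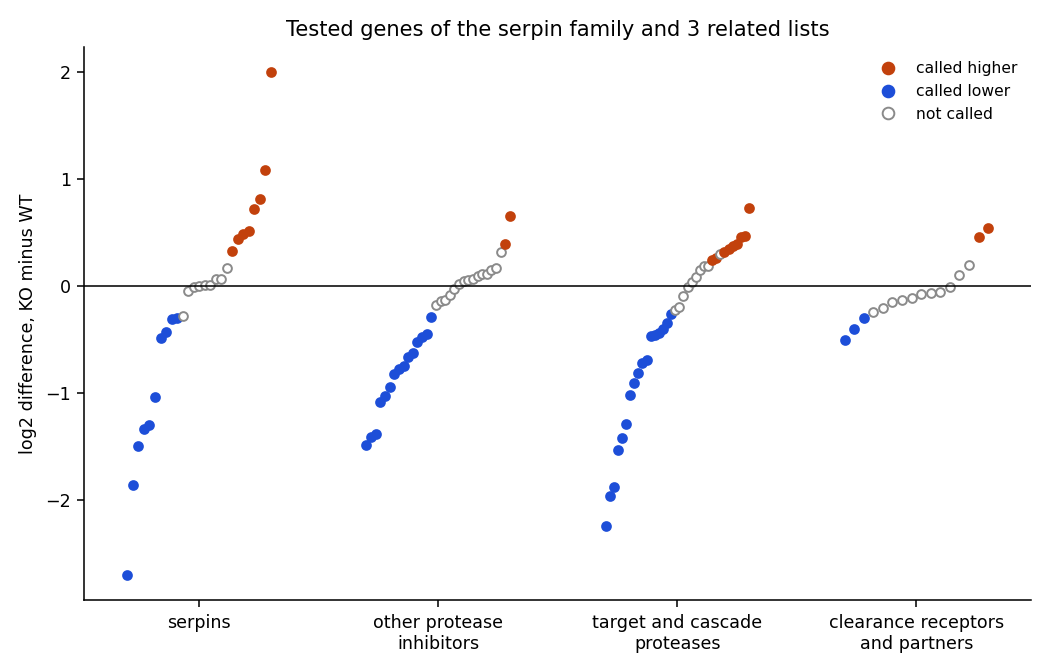
Log2 difference, KO minus WT, of each tested gene (1 point a gene, ranked within its list) for the 27 serpins, 32 other protease inhibitors, 36 target and cascade proteases and 16 clearance receptors and partners. Serpins reach from -2.71 to 2.0, with 10 genes called lower and 8 higher, while the other inhibitors reach from -1.49 to 0.65, with 15 called lower and 2 higher.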

How the data were processed

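The 6 samples were single mice, 3 labelled Aire KO and 3 labelled Aire WT. The authors deposited 1 linear-scale intensity for each probe set and array. The submitters' processing notes name RMA, which subtracts background and brings all arrays to 1 distribution. No source used here gives its version or a genome build. RMA gives no detection call, and quantile normalization hides changes of total RNA.

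The log2 of each intensity was taken, with a pseudocount of 0. Of 35512 probe sets, 21789 carry 1 symbol in the platform annotation, 1621 several and 12102 none. The 48 serpin probe sets of 1 symbol each stood for 1 gene, all 48 matched the RefSeq table, and 5 probe sets of several serpin symbols were set aside. Of 19938 genes, 13925 passed the intensity filter, set at percentile 40 of the whole table and required of at least 3 arrays. These were tested with limma 3.58.1 in R 4.3.3 (lmFit, eBayes, two-sided, Benjamini-Hochberg adjustment, threshold 0.05), with genotype as the only factor. Where a gene had several probe sets, the one of highest mean was used. The fit was tested on simulated data. Figures were drawn with matplotlib 3.10.9.

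Members and lists were chosen with earlier results of these data known. Per-array values are given for every called serpin and for the 6 brightest not called. Of the 3 related lists, up to 4 called genes a direction are named in order of adjusted p. Other genes, among them Plau, Furin, Mcpt4, Acr, Plat, Spint1, Col1a1 and Lrp1, were chosen after their values were seen. The motifs were also chosen after the expression values were seen. The numbers were not taken as pairs, since nothing says that equal numbers mark a shared litter or day. Correlations of deviations were -0.018, -0.21 and -0.056 between same-numbered mice and ran from -0.095 to 0.15 between the others. With deviations centred within groups of 3 mice, these values cannot exclude a pairing.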

Additional observations from a re-analysis of the deposited data

How the results depend on the processing

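Of the 18 called serpins, 12 were called in every one of the 16 alternative fits that tested them, and the 18 kept their direction in those fits. With the stricter intensity filter 17 serpins were tested, and 6 were called lower and 7 higher, beside 29.4% of all genes called. In that fit 1 gene of the clearance list was called in each direction, since fewer genes entered. With the variance of each gene taken alone, 5 serpins, 4 proteases and 0 other inhibitors were called higher. In that fit Serpina12, Serpinb10, Serpinb6b, Serpinb9 and Serpinh1 lost their calls and Serpinc1 gained one (ordinary t-test without eBayes, adjusted p = 0.048), and 12.7% of all genes were called. Array weights added Serpina10 (limma adjusted p = 0.024). Leaving out each mouse in turn gave 9 to 10 serpins called lower and 6 to 8 higher. Of the proteases, 14 to 17 were called lower and 4 to 8 higher. In these fits 17.4% to 23.3% of all genes were called. Over all genes, 1676 were called higher with all mice and 1052 without KO replicate 1. With the replicate block, 9 serpins were called lower and 8 higher, beside 22.3% of all genes called. In that fit Serpinh1 lost its call (limma adjusted p = 0.067), though the numbers are not shown to pair the mice. With no filter 15 serpins were called lower and 9 higher, beside 19.9% of all genes called. The number of arrays limits the precision, and signal over background could not be tested.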
